A study of Rattus norvegicus with 6 samples.

Results

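The genes of the platelet-derived growth factor (PDGF) system were taken from the count table by gene symbol: the ligands Pdgfa, Pdgfb, Pdgfc and Pdgfd and the receptors Pdgfra and Pdgfrb. Of the 6 genes, 5 had a row among the 14475 genes of the table, and Pdgfb, with no row under its symbol, was not analysed here. VSM cells were grown from the soleus feed artery (SFA), which supplies the soleus muscle of the leg, of rats of a single strain aged 4 months (young) or 24 months (old), and no treatment or transgene distinguished the groups. Each group had 3 stranded mRNA libraries, and the paper states 3 rats per group. The values describe cells that had grown in medium with fetal bovine serum rather than cells of the intact artery. Nothing in the sample labels states that the libraries came from separate cultures, so p-values measure the spread between these libraries. The question was whether the PDGF system differed with age, and how Pdgfrb, the receptor typical of mural cells, stood against Pdgfra, the receptor typical of fibroblasts.

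PDGF ligands act as dimers of disulfide-linked chains, and ligand binding pairs 2 receptor chains so that their tyrosine kinases phosphorylate each other. The A and C chains bind the α receptor, encoded by Pdgfra. The D chain binds mainly the β receptor, encoded by Pdgfrb, and the B chain binds both. In the vessel wall, PDGF-B from endothelial cells recruits mural cells (VSM cells and pericytes) through the β receptor, and in culture PDGF is a classical mitogen that lowers the expression of contractile genes.

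Total counts per library ranged from 44235674 to 59700887. Levels are in CPM, that is counts relative to the TMM-adjusted library size, and are not corrected for gene length, so levels are compared between libraries and not between genes. Markers listed for the cell types were checked first. The lists were chosen with earlier results of these data known. The paper had already reported Acta2 and Myh11 as lower in old cells from these libraries. Of 15 mural markers 12 had a row, and Acta2, Myh11, Cnn1 and Tagln had at least 112 CPM in the mean of either group. Over the 6 libraries, Cspg4 and Lmod1 averaged 220 and 213 CPM, and Mcam, Notch3 and Ndufa4l2 48.2, 18.3 and 14.6 CPM. The markers Synpo2, Des and Abcc9 averaged only 3.12, 1.91 and 0.602 CPM. Fibroblast markers were measured as well and are given below. The pericyte markers Rgs5, Kcnj8 and Higd1b had no row under their symbols. As 1518 genes of the table carry no symbol, a marker without a row was not shown to be low. Endothelial, leukocyte and Schwann cell markers with a row had summed levels of at most 45.4, 16.8 and 86.6 CPM in any library. The Schwann cell marker S100b alone reached 81.2 CPM and the endothelial marker Egfl7 31.7 CPM. Others of these markers had no row. Genes were called DEGs where the adjusted p was under 0.05 and old and young differed by 1 or more on the log2 scale.

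None of the 5 PDGF genes was a DEG in edgeR's quasi-likelihood test, in which 1 of all genes was called (0.00691%). An unadjusted p under 0.05 was reached by 4 of the 5, compared with 22.6% of all genes. The DESeq2 Wald test, the tool used by the paper, also called 0 of the 5 on the same counts. It called 5.68% of the genes to which it gave an adjusted p. With limma-voom 0 of all genes were called, so its 0 of the 5 says nothing particular to the PDGF genes. The old libraries lay above all young libraries for Pdgfra and Pdgfd (14.5% of all genes did so) and below them for Pdgfa (14.7% of all genes). For Pdgfc and Pdgfrb the groups overlapped.

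**Figure D1:**
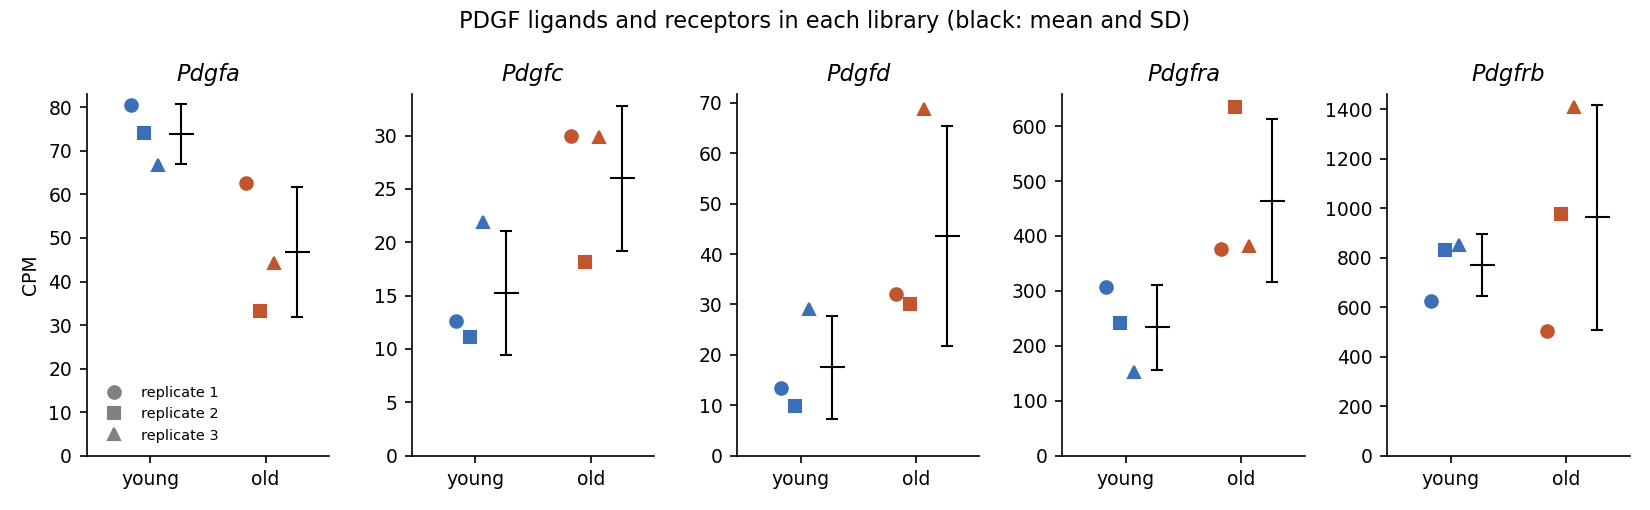
CPM of each PDGF ligand and receptor (vertical axis) in young and old VSM cells, with one point per library, the shape giving the replicate number and the black mark the mean and SD of 3 libraries. The old points of Pdgfa lie below 63 CPM and the young points above 66 CPM, the old points of Pdgfd and Pdgfra lie above their young points, and those of Pdgfc and Pdgfrb overlap.

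Among the ligands, Pdgfa (ENSRNOG00000001312), which encodes the A chain, had 80.6, 74.2 and 66.7 CPM in young replicates 1, 2 and 3 and 62.7, 33.3 and 44.3 CPM in old replicates 1, 2 and 3. All old values lay below the lowest young value, and old replicate 1 came nearest to it. The mean was 73.8 ± 6.92 CPM (SD, n = 3) in the young and 46.8 ± 14.9 CPM (SD, n = 3) in the old libraries. The log2 fold change was -0.66 ± 0.23 (SE), with adjusted p = 0.177 from edgeR. DESeq2 gave an adjusted p of 0.0754. Without old replicate 1 the adjusted p from edgeR was 0.0359 at a log2 fold change of -0.93, still short of the fold threshold. That fit called 5.06% of all genes, against 0.00691% with all libraries, so a lower adjusted p there is not particular to Pdgfa.

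Pdgfc (ENSRNOG00000010695) encodes the C chain, which is secreted in a latent form with a CUB domain that has to be cleaved off before the growth factor domain can bind. It had 12.6, 11.1 and 21.9 CPM in the young libraries and 30.0, 18.1 and 29.8 CPM in the old libraries. Young replicate 3 exceeded old replicate 2, while the other old libraries lay above all young ones. The means were 15.2 ± 5.83 and 26.0 ± 6.79 CPM (SD, n = 3 each), and the log2 fold change was 0.77 ± 0.32 (SE), with adjusted p = 0.218 from edgeR. Without young replicate 3 the log2 fold change was 1.13 (adjusted p = 0.163 from edgeR).

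Pdgfd (ENSRNOG00000029148) encodes the D chain, the other ligand with a CUB domain. Its values were 13.5, 9.82 and 29.2 CPM in the young libraries against 32.0, 30.0 and 68.8 CPM in the old ones. Replicate 3 was the highest library of either group, and the gap between young replicate 3 and old replicate 2 was smaller than the distances within the groups. The means were 17.5 ± 10.3 and 43.6 ± 21.8 CPM (SD, n = 3 each), and the old mean was 2.49 times the young mean. The log2 fold change of 1.32 (standard error 0.50) was larger in size than that of any other PDGF gene measured, but the adjusted p was 0.199 from edgeR and 0.0601 from DESeq2. It was 1.90 without young replicate 3 and 0.83 without old replicate 3, with adjusted p of 0.163 and 0.413 from edgeR.

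Of the receptors, Pdgfra (ENSRNOG00000002244) had 307, 242 and 153 CPM in the young libraries and 376, 635 and 381 CPM in the old libraries. Each old library lay above each young library, and old replicate 2 stood highest. The means were 234 ± 77.6 CPM in young and 464 ± 148 CPM in old (SD, n = 3 each), an old mean 1.98 times the young mean. The log2 fold change was 0.99 ± 0.32 (SE), with adjusted p = 0.159 from edgeR. DESeq2 gave an adjusted p of 0.0306 with a log2 fold change of 0.98, so that Pdgfra passed the p threshold of that test and missed its fold threshold. In edgeR it passed neither, and when single libraries were omitted its log2 fold change lay between 0.69, without old replicate 2, and 1.23, without young replicate 1.

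Pdgfrb (ENSRNOG00000018461) had 627, 832 and 851 CPM in the young libraries and 502, 977 and 1411 CPM in the old libraries. Old replicate 1 was the lowest and old replicate 3 the highest of all libraries, so that the young values lay inside the range of the old ones. The means were 770.2 ± 124 and 963 ± 455 CPM (SD, n = 3 each). The coefficient of variation was 16.1% among young and 47.2% among old libraries, whereas for Pdgfra it was 33.1% and 31.9%. The log2 fold change of Pdgfrb was 0.32 ± 0.37 (SE), with adjusted p = 0.613 from edgeR and 0.628 from DESeq2. It was -0.059 without old replicate 3 and 0.63 without old replicate 1.

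The balance of the receptors was taken in each library as the ratio of Pdgfrb to Pdgfra counts. The size of this ratio depends on the lengths of both transcripts, but the lengths cancel when libraries are compared. The ratio was 2.04, 3.44 and 5.57 in the young libraries and 1.33, 1.54 and 3.70 in the old libraries. Old replicates 1 and 2 lay below every young library, and old replicate 3 lay between young replicates 2 and 3. On the log2 scale the mean was 1.76 ± 0.72 in young and 0.98 ± 0.80 in old (SD, n = 3 each). The difference, old minus young, was -0.79 with a standard error of 0.62 (two-sided exact permutation test, p = 0.3). With 3 libraries a group, 0.1 is the smallest p such a test can reach. The log2 fold change of Pdgfra was therefore not shown to differ from that of Pdgfrb, and the difference was -0.43 without young replicate 3 and -1.24 without old replicate 3.

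**Figure D2:**
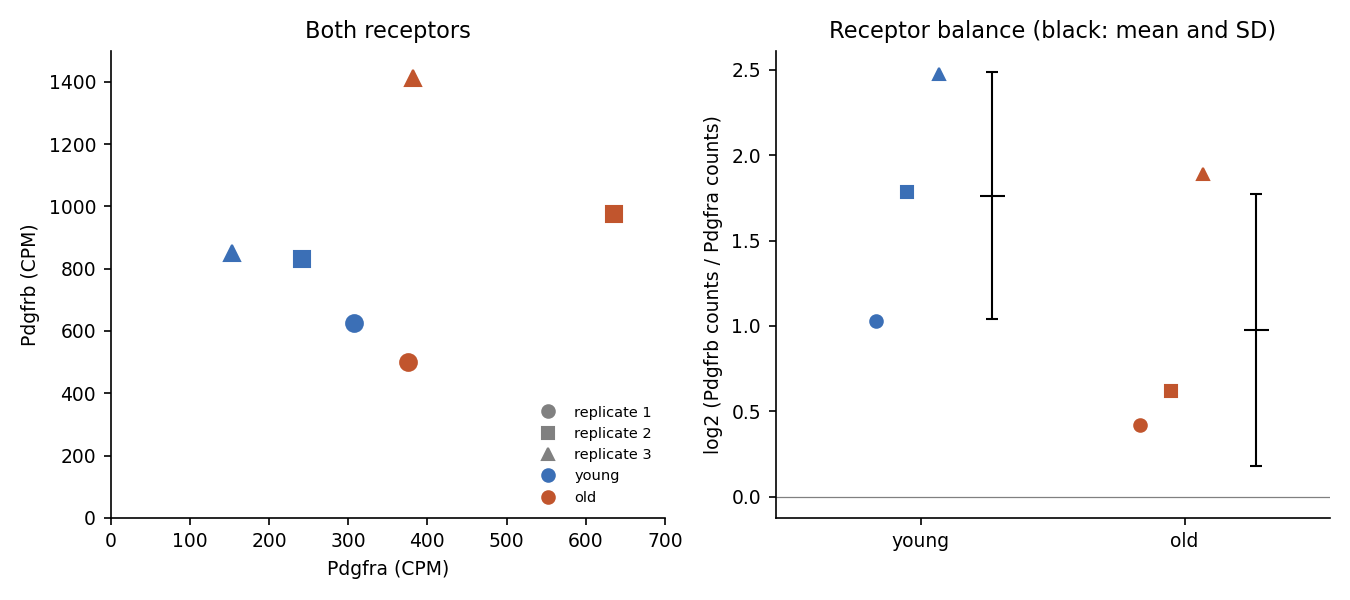
Left, Pdgfrb against Pdgfra in CPM, one point per library, colored by age group and shaped by replicate number. Right, the log2 ratio of Pdgfrb to Pdgfra counts by group with the mean and SD of 3 libraries. The ratio is lowest in old replicate 1 at 0.42 and highest in young replicate 3 at 2.48, and old replicate 3 at 1.89 lies within the young range.

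The summed markers of mural cells and of fibroblasts did not overlap between the groups. The summed level of the 12 mural markers measured was 11340 to 21350 CPM in young and 3483 to 5605 CPM in old libraries, and that of 18 fibroblast markers was 42150 to 54970 CPM in young and 80230 to 105600 CPM in old libraries. Acta2 and Tagln were the largest parts of the mural sum in every library, so that this sum is mainly a level of these contractile genes. They had 4972 and 4785 CPM in young replicate 1 and 1422 and 1753 CPM in old replicate 3. Pdgfrb did not follow the mural sum across the groups, since its highest value was in old replicate 3, where the mural sum was 3561 CPM. Within the young group the order was shared, with young replicate 1 lowest and young replicate 3 highest in both Pdgfrb and the mural sum. The collagens Col1a1, Col1a2 and Col3a1 made up 90.4% to 94.6% of the fibroblast sum in each library, so that the sum is mainly a collagen level. A sum over the other 15 markers, added after the values were seen, was 3663 to 4032 CPM in young and 4296 to 6085 CPM in old libraries. Pdgfra was highest in old replicate 2, and both sums were highest in old replicate 3. Of the 18 markers, 10 were highest in old replicate 3 and 4 in old replicate 2, among them Dcn at 411 CPM and Lum at 255 CPM. Within the young group young replicate 3 had the lowest Pdgfra, the highest mural sum and also the highest fibroblast sum with the collagens included. In bulk RNA, fewer cells of a type and less RNA per cell cannot be told apart, and the part of cell composition in the PDGF values was not tested.

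**Figure D3:**
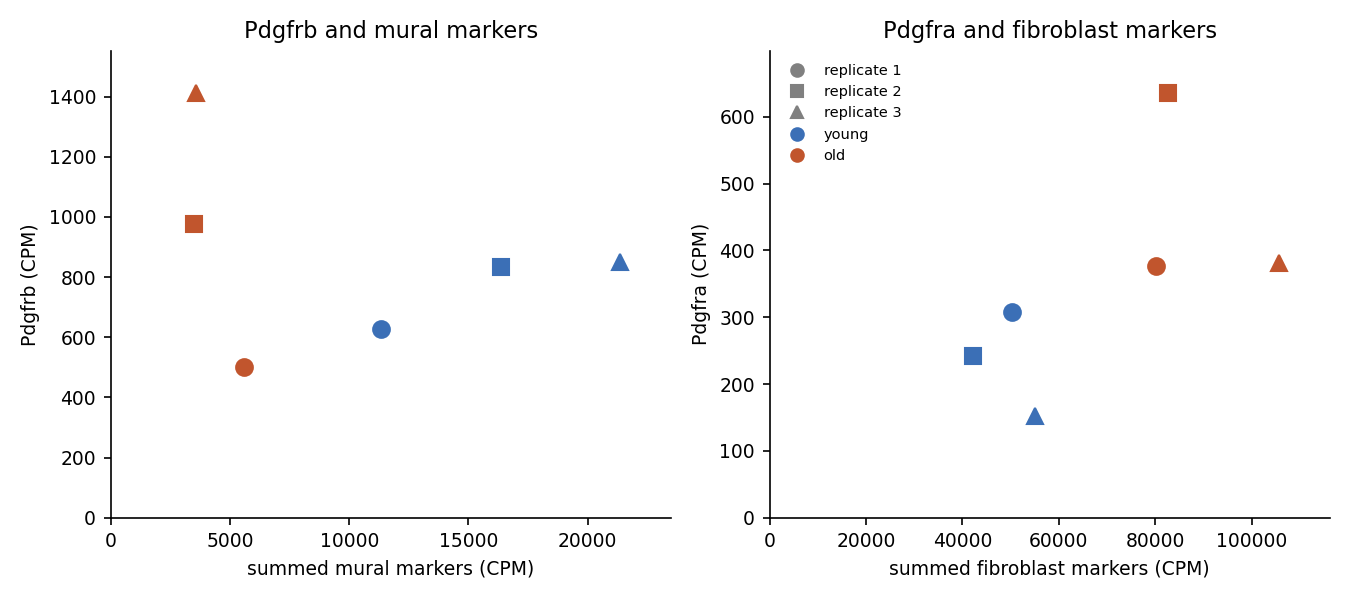
Left, Pdgfrb against the summed mural markers, and right, Pdgfra against the summed fibroblast markers, all in CPM with one point per library, colored by age group and shaped by replicate number. The old libraries have mural sums of at most 5605 CPM and fibroblast sums of at least 80230 CPM, while Pdgfrb spans 502 to 1411 CPM among them.

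Of the mural markers measured, 11 had lower and 1 higher fitted values in old. Their median log2 fold change was -1.59, while the median of all genes was 0.018. edgeR called 0 of the 12 as DEGs, with 9 at an unadjusted p under 0.05 (22.6% of all genes), and DESeq2 called 8, of which 7 were lower (5.68% of all genes were called). Without old replicate 1 edgeR called 6 of the 12, all lower, while it then called 5.06% of all genes. With only genes of at least 1 CPM in at least 3 libraries it called 1, against 0.532% of the genes left. Without young replicate 1 it also called 1, out of 5 called among all 14475 genes. Mcam, an adhesion molecule of mural cells, had 89.2 ± 45.6 CPM in young and 7.19 ± 0.962 CPM in old (SD, n = 3 each). Its log2 fold change was -3.63 (adjusted p = 0.0531 from edgeR and 1.74e-17 from DESeq2). Myh11, the smooth muscle myosin heavy chain, had a log2 fold change of -3.08 (adjusted p = 0.0648 from edgeR and 4.63e-08 from DESeq2). The marker that went the other way was Ndufa4l2, a mitochondrial protein gene also known as a hypoxia target, at 1.76 ± 0.863 CPM in young and 27.5 ± 25.8 CPM in old (SD, n = 3 each). Its log2 fold change of 3.97 was the largest in size of the 12 (adjusted p = 0.0930 from edgeR and 3.82e-06 from DESeq2).

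Of the 18 fibroblast markers, 16 had higher fitted values in old, and their median log2 fold change was 1.26. edgeR called 0, with 8 at an unadjusted p under 0.05 (22.6% of all genes), and DESeq2 called 6 (5.68%), all higher in old. Dpp4 was counted among the 16, the 8 and the 6. It had 0.0886, 0 and 0.0407 CPM in the young libraries against 0.804, 0.269 and 1.34 CPM in the old ones. The minimum of 10 counts, required in 3 libraries for a gene to be in the table, was reached only in its old libraries. Its direction was thus set by that filter and adds no support. Without old replicate 1 edgeR called 3 of the 18 (5.06% of all genes), and with the CPM filter 1 (0.532%). Clec3b, which encodes tetranectin, had 2.04 ± 0.754 CPM in young and 18.2 ± 6.14 CPM in old (SD, n = 3 each), and its log2 fold change was 3.15 (adjusted p = 0.0531 from edgeR and 8.87e-13 from DESeq2). Col14a1, a collagen that associates with fibrils, had a log2 fold change of 2.43 (adjusted p = 0.0743 from edgeR and 3.83e-06 from DESeq2). The proteoglycan gene Dcn had 19.9, 1.16 and 2.28 CPM in the young libraries against 26.0, 411 and 119 CPM in the old ones, so that its old mean rested on old replicate 2. Its log2 fold change was 4.58 (adjusted p = 0.156 from edgeR and 0.0185 from DESeq2).

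Balance was also computed within the ligands. The ratio of Pdgfc to Pdgfd counts, the pair with CUB domains, was 0.938, 1.13 and 0.750 in the young libraries and 0.937, 0.604 and 0.434 in the old libraries. Old replicate 1 fell among the young libraries and the other old libraries below them. The log2 difference, old minus young, was -0.57 with a standard error of 0.36 (two-sided exact permutation test, p = 0.2). The ratio of Pdgfa to Pdgfb was not computed, as Pdgfb was not analysed here.

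The start region of the members whose groups did not overlap is shown for reference, since the counts give RNA levels only and no measure of binding or of the start site in use. Sequences are the 250 bases before the gene start in the RefSeq annotation of GRCr8, a later assembly than the Rnor 6.0 to which the reads were aligned. They were found for 4 of the 5 members, all but Pdgfrb. Capitals mark CCAAT or GGGCGG on either strand, so that they can read ATTGG or CCGCCC.
Pdgfra, chr14:33408517-33408766, minus strand: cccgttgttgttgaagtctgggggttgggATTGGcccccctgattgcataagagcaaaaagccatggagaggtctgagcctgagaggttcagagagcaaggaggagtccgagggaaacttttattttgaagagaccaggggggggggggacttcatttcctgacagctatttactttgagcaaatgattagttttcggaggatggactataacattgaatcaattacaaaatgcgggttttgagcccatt
Pdgfd, chr8:11773258-11773507, plus strand: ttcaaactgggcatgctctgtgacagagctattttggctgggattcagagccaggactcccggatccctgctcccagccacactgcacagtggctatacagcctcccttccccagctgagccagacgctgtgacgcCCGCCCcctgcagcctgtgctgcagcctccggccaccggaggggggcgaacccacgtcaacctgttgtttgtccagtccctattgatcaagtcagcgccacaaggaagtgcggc
Pdgfa, chr12:20759116-20759365, plus strand: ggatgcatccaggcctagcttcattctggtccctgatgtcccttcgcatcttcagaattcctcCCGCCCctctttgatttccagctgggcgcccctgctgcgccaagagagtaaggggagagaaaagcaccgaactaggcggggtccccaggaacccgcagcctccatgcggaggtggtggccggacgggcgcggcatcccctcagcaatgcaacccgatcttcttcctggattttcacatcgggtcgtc
Pdgfra had 1 CCAAT match, 221 bases before the start, and a GC content of 47.2%. Pdgfd and Pdgfa had 1 GGGCGG match each, 114 and 187 bases before the start, with GC contents of 61.6% and 60.8%. Pdgfc had neither. CCAAT was present in 34.0% and GGGCGG in 30.5% of the 33469 regions of this length, so these matches are common. TATAAA (12.9% of regions) and the CArG box, the element bound by serum response factor in contractile genes (1.497%), were in none of the 4.

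Genes that act around the ligands and receptors were described by lists. Among 11 genes of ligand maturation and extracellular partners, 7 had higher and 4 lower fitted values in old (median log2 fold change 0.22). edgeR called 0, with 4 at an unadjusted p under 0.05 (22.6% of all genes), and DESeq2 called 1, which was lower (5.68% of all genes were called). Without old replicate 1 edgeR called 1 (5.06% of all genes). The plasminogen activators Plat and Plau, proteases that can cleave the C and D chains, had log2 fold changes of -0.084 and 0.36 (adjusted p of 0.826 and 0.751 from edgeR). They were chosen after their values were seen.

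Lrp1, a large endocytic receptor that associates with PDGF receptors, had 1536, 1542 and 1134 CPM in the young libraries against 1922, 3541 and 2189 CPM in the old ones. Its lowest library was young replicate 3 and its highest old replicate 2, as for Pdgfra. The log2 fold change was 0.86 ± 0.28 (SE), with adjusted p = 0.157 from edgeR, and DESeq2 gave an adjusted p of 0.0243 below its fold threshold. Pcsk5, a proprotein convertase, had a log2 fold change of 1.07 (adjusted p = 0.214 from edgeR).

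Among 23 receptor adaptors and effectors, 11 had higher and 12 lower fitted values in old, and the median log2 fold change was -0.034. edgeR called 0, with 6 at an unadjusted p under 0.05, and DESeq2 called 1, shares near the 22.6% and 5.68% of all genes. With the CPM filter or without old replicate 1, edgeR called 1 (0.532% and 5.06% of all genes). The gene called by DESeq2 was Fyn, a Src family kinase, at 38.2, 38.8 and 41.1 CPM in the young libraries against 69.0, 89.0 and 87.0 CPM in the old ones. The groups were far apart for their spread, with a log2 fold change of 1.05 ± 0.12 (SE), with adjusted p = 0.0531 from edgeR and 4.55e-10 from DESeq2. Yes1, another kinase of the family, went the other way, at 113 ± 32.8 CPM in young and 64.7 ± 8.09 CPM in old (SD, n = 3 each, log2 fold change -0.80, adjusted p = 0.123 from edgeR). The adaptor Nck2 had a log2 fold change of -0.62 (adjusted p = 0.181 from edgeR).

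All 13 receptor attenuators, which include ubiquitin ligases and phosphatases that act on receptors and the Sprouty and Spred inhibitors of the Ras and ERK pathway, had lower fitted values in old. The median log2 fold change was -0.23, and 6 of the 13 had all old libraries below the young ones (14.7% of all genes). edgeR called 0, with 4 at an unadjusted p under 0.05, and DESeq2 called 1, shares near the 22.6% and 5.68% of all genes. Spry1 was the gene called, at 23.3, 23.8 and 29.4 CPM in the young libraries against 9.71, 14.0 and 12.3 CPM in the old ones. Its log2 fold change was -1.09 ± 0.17 (SE), with adjusted p = 0.0574 from edgeR and 7.05e-06 from DESeq2. Spry4 had a log2 fold change of -1.08 (adjusted p = 0.179 from edgeR). Dusp6, the ERK phosphatase, had 22.5, 26.3 and 32.6 CPM in the young libraries against 25.0, 4.35 and 15.4 CPM in the old ones, where old replicate 1 fell inside the young range.

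Of 12 growth factor response genes, 5 had higher and 7 lower fitted values in old (median log2 fold change -0.27). edgeR called 0, with 2 at an unadjusted p under 0.05 (22.6% of all genes), and DESeq2 called 1, Klf4 (5.68% of all genes). edgeR called 1 with the CPM filter (0.532%) and 2 without old replicate 1 (5.06%). Klf4, a transcription factor that represses contractile genes in VSM cells exposed to PDGF-BB, had 60.3, 58.9 and 40.4 CPM in the young libraries against 114, 124 and 136 CPM in the old ones. All old libraries lay above the young ones. Its log2 fold change was 1.23 ± 0.17 (SE), with adjusted p = 0.0545 from edgeR and 1.51e-07 from DESeq2. Ier3 had a log2 fold change of -0.88 (adjusted p = 0.218 from edgeR). The chemokine gene Ccl2 varied more within the groups than between them, with 1417, 773 and 35.2 CPM in the young libraries against 336, 813 and 103 CPM in the old ones.

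**Figure D4:**
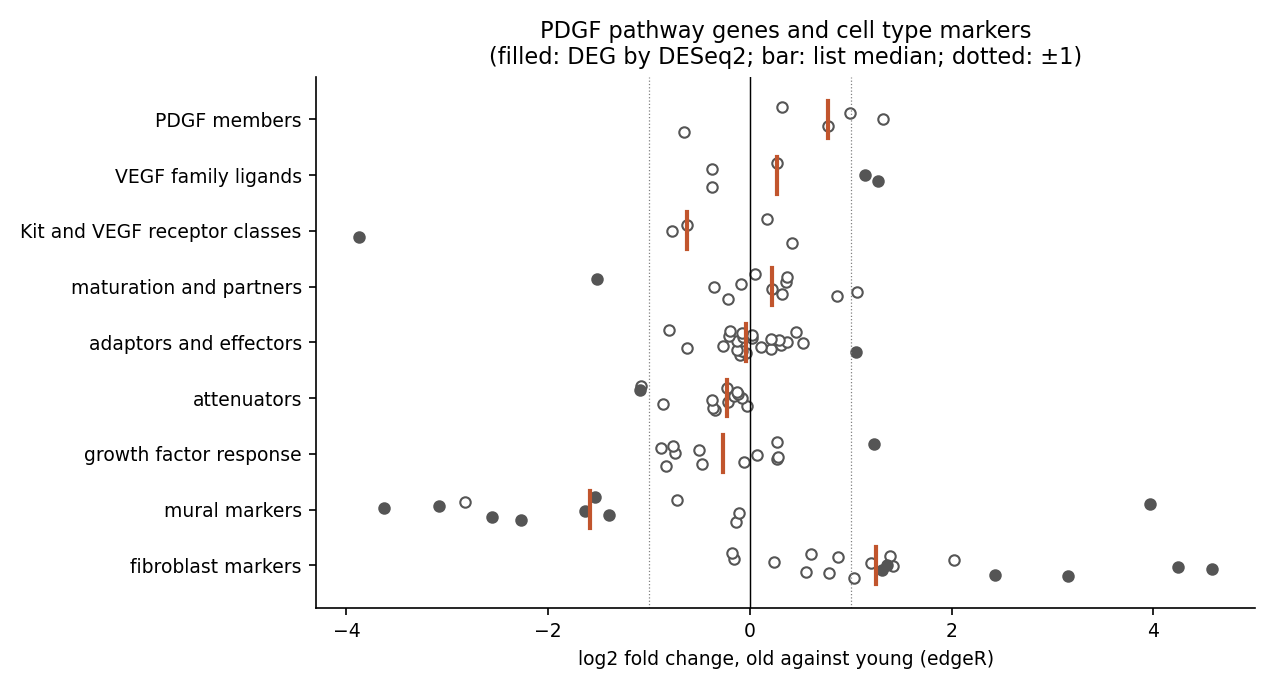
Log2 fold change, old against young, from edgeR for each gene of the PDGF lists and of the mural and fibroblast markers, with the list median as a bar, filled points for DEGs of DESeq2 and dotted lines at the fold threshold. The PDGF genes lie between -0.66 and 1.32, all attenuators lie below 0, and the medians of the mural and fibroblast markers are -1.59 and 1.26.

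The relatives of the PDGF genes were measured as well. PDGF and VEGF ligands share a cystine knot fold, and the receptors form related classes of tyrosine kinases. Of 5 VEGF family ligands 0 were called by edgeR, 2 had an unadjusted p under 0.05 (22.6% of all genes) and 2 were called by DESeq2 (5.68%), both higher in old. Without old replicate 1 edgeR also called 2, against 5.06% of all genes. Vegfa had 124, 146 and 134 CPM in the young libraries against 252, 461 and 260.0 CPM in the old ones, and as for Pdgfra old replicate 2 stood highest. Its log2 fold change was 1.27 ± 0.25 (SE), with adjusted p = 0.0762 from edgeR and 0.000179 from DESeq2. Vegfb had a log2 fold change of 1.14 (adjusted p = 0.168 from edgeR and 0.0380 from DESeq2), and those of Vegfc, Vegfd and Pgf were -0.38, 0.27 and -0.38.

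The receptors of the Kit and VEGF receptor classes were at low levels in these cultures. Kit, Csf1r, Flt4 and Kdr had means of at most 3.65 CPM in either group, with log2 fold changes of 0.17, 0.42, -0.77 and -0.62. Flt1, a VEGF receptor, had 2.64, 7.56 and 10.5 CPM in the young libraries against 0.804, 0.154 and 0.448 CPM in the old ones. All old libraries lay below the young ones. Its log2 fold change was -3.87 ± 0.74 (SE), with adjusted p = 0.0732 from edgeR and 1.00e-06 from DESeq2. Of these 5 receptors, edgeR called 0, with 1 at an unadjusted p under 0.05, a share near the 22.6% of all genes, and DESeq2 called 1 (5.68% of all genes). Without old replicate 1 edgeR called 1 (5.06% of all genes).

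For each member, the genes with the most similar pattern over the 6 libraries were taken by Pearson's r of log2 CPM, out of 11435 other genes with a symbol and a mean of at least 1 CPM. Values of r this high can arise by selection when many genes are searched over few libraries, and they are given as a description. How many genes reached such values was not counted. Nearest to Pdgfra were Tgfbr3, the TGF-β co-receptor betaglycan (r = 0.997), Cfi (r = 0.995) and Kmt2e (r = 0.995). Tgfbr3 had 50.4, 34.2 and 14.5 CPM in the young libraries against 88.6, 205 and 74.7 CPM in the old ones, with young replicate 3 lowest and old replicate 2 highest. Nearest to Pdgfrb were Irgq (r = 0.993), Zfp830 (r = 0.989) and Dnajb9 (r = 0.987), whose log2 fold changes were at most 0.069. Irgq lay between 47.6 and 53.8 CPM in all libraries, where Pdgfrb spanned 502 to 1411 CPM, since r takes no account of the size of the differences. Nearest to Pdgfa were Nedd4l (r = 0.997), Tes (r = 0.995) and Rsu1 (r = 0.995). Nearest to Pdgfc were Asph (r = 0.999), Sufu (r = 0.997) and Runx1t1 (r = 0.987), and nearest to Pdgfd were Chtop (r = 0.996), Nos1ap (r = 0.993) and Plekha5 (r = 0.992). No member had another member among its nearest 3 genes.

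**Figure D5:**
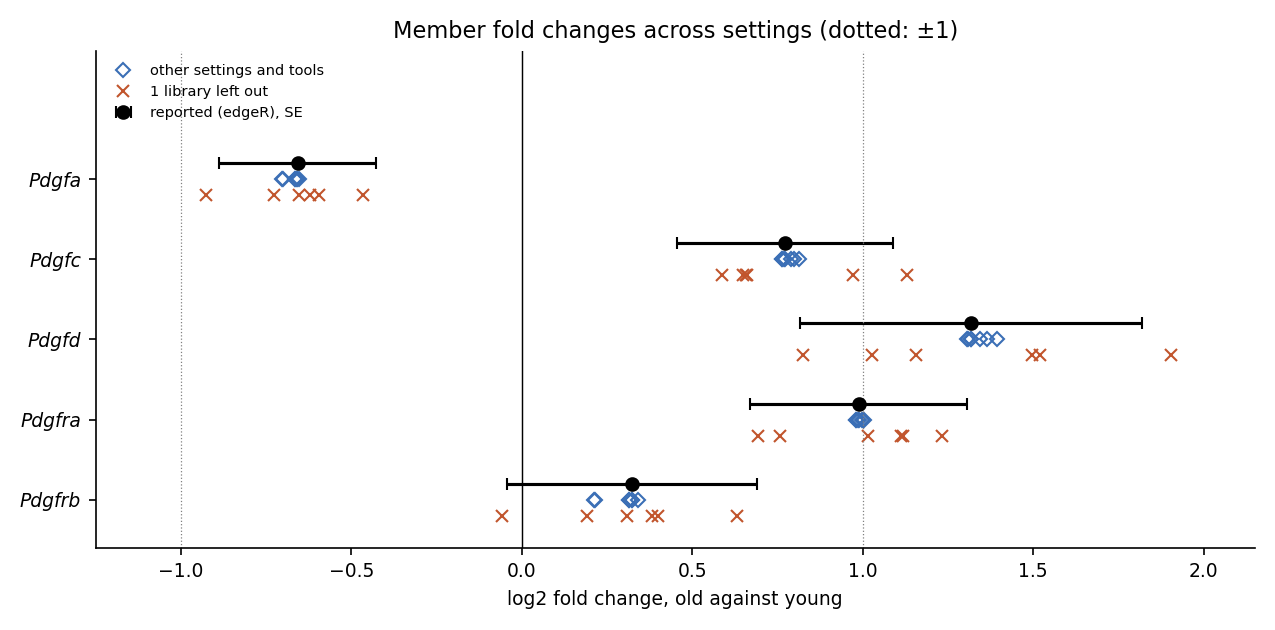
Log2 fold change, old against young, of each PDGF gene as reported from edgeR with its standard error (black), under the 7 other settings and tools (blue) and with each of 6 libraries left out in turn (red). Pdgfa stays below 0 and Pdgfc, Pdgfd and Pdgfra stay above 0 throughout, while Pdgfrb spans -0.059 to 0.63.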

How the data were processed

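The authors trimmed the reads with Cutadapt 3.5 through Trim Galore 0.6.7, aligned them with STAR 2.7.10b to the rat assembly Rnor 6.0 and counted genes with featureCounts of Subread 2.0.8. The deposited values are raw counts per gene, not normalized, and every gene has at least 10 counts in at least 3 libraries. The paper words its filter so that genes with fewer in 3 libraries would be removed, and 399 such genes are in the table. Its gene identifiers are those of Ensembl, although the stated annotation is from RefSeq, so the annotation counted is uncertain. How strand, mates and multi-mapped reads were handled is not given in the sources used here. Total counts of every library exceeded the number of reads per sample that the paper states. Whether both mates of a pair were counted was not tested. Even numbers made up 68.7% to 71.1% of counts between 1 and 19 in the libraries, and halved counts were therefore an alternative. Old and young libraries (n = 3 each) were compared across 14475 genes in R 4.3.3 with edgeR 4.0.16 (TMM, quasi-likelihood F test, Benjamini-Hochberg adjustment over all genes, young as reference, no covariates). Standard errors (SE) of fold changes were derived from the size of the change and the F statistic. DESeq2 1.42.0, which gave no adjusted p to 292 genes, and limma-voom (limma 3.58.1) were alternatives. Receptor and ligand balances were tested by exact permutation of libraries (scipy 1.17.1). The fits were tested on simulated data.

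Members and lists were chosen with earlier results of these data known. Every member is named. From each list the 3 genes with a mean of at least 1 CPM and the largest absolute log2 fold change are named, with all genes of the VEGF ligand and receptor class lists, and 3 pattern neighbors per member, computed on log2(CPM + 0.5). Gene lengths and protein sequences were not used here. No sample column was left out. Some genes that this rule selects are not reported here.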

Additional observations from a re-analysis of the deposited data

How the results depend on the processing

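The number of DEGs over all genes, 1 as reported, was 65 with only genes of at least 1 CPM in at least 3 libraries, 805 with DESeq2, 0 with limma-voom, 381 at an adjusted p under 0.1 and between 0 and 732 with 1 library left out, the highest count being without old replicate 1. No PDGF gene was a DEG under any of the 13 alternatives run for it. Apart from DESeq2, the CPM filter and the fit without old replicate 1, each of these called at most 5 of all genes. The absence of a PDGF gene from their calls therefore says nothing particular to the PDGF genes. Pdgfa, Pdgfc, Pdgfd and Pdgfra kept their direction in all of them, and Pdgfrb was reversed without old replicate 3 (-0.0588). With 1 library left out, the log2 fold changes ranged from -0.93 to -0.46 for Pdgfa, 0.59 to 1.13 for Pdgfc, 0.83 to 1.90 for Pdgfd, 0.69 to 1.23 for Pdgfra and -0.0588 to 0.63 for Pdgfrb, the receptor balance from -1.24 to -0.43 and the Pdgfc to Pdgfd balance from -0.86 to -0.30. Whether replicate numbers pair the libraries was not settled. Deviations from the group means correlated at 0.0633, 0.312 and 0.293 for replicates 1, 2 and 3. Between libraries of unlike number the correlations ranged from -0.449 to 0.345, the highest being young replicate 1 with old replicate 2. Deviations within a group of 3 sum to 0, so these values cannot exclude pairing. With the replicate block, the log2 fold change of Pdgfd was 1.36 (adjusted p = 0.0746 from edgeR), that of Pdgfra 1.00 and that of Pdgfrb 0.21, and the block changed no call of a PDGF gene. The standard error of each PDGF gene was smaller with the block, for Pdgfd 0.12 against 0.50.

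List medians moved by more than the spread between libraries as follows. Ligand maturation genes had 0.10 with limma-voom and 0.10 with the replicate block, and skeletal muscle markers, -0.77 as reported, had -1.36 and -1.22. With the CPM filter the Kit and VEGF receptor class had -0.30, Schwann cell markers, 0.57 as reported, had 0.88 and skeletal muscle markers 0.0765. With 1 library left out, medians ranged from -0.0736 to 0.48 for VEGF ligands, -0.82 to -0.20 for the receptor class, -0.27 to 0.27 for ligand maturation, -0.0663 to 0.0185 for adaptors, -0.94 to 0.0328 for growth factor response, -1.84 to -1.24 for mural, -0.37 to 0.11 for endothelial, 0.11 to 1.23 for leukocyte, 0.32 to 0.74 for Schwann cell and -1.09 to -0.20 for skeletal muscle markers. The causes were not tested. With 1 library left out, the attenuator median, -0.23 as reported, lay between -0.32 and -0.24 and the fibroblast median between 1.00 and 1.31.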

Other observations

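The ratio of Pdgfa to Pdgfd counts was chosen after the values had been seen, because Pdgfb was not analysed here. The A chain binds the α receptor and the D chain mainly the β receptor. The ratio was 5.97, 7.55 and 2.29 in the young and 1.96, 1.11 and 0.645 in the old libraries, and the groups did not overlap. On the log2 scale the mean was 2.23 ± 0.91 in young and 0.16 ± 0.80 in old (SD, n = 3 each), a difference of -2.07, old minus young. Because every old library lay below the young ones for Pdgfa and above them for Pdgfd, the ratio could not overlap between the groups. The two-sided exact permutation test therefore had to give p = 0.1, the smallest it can give, and adds no support. With 1 library left out the difference lay between -2.59 and -1.67, and with the difference of edgeR's log2 fold changes it was -1.98.

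Pdgfrl, a gene for a secreted protein with resemblance to the PDGF receptor ectodomain, was also chosen after its values were seen. It had 38.5, 31.4 and 48.4 CPM in the young libraries against 37.2, 47.2 and 74.4 CPM in the old ones, with overlapping groups (log2 fold change 0.42, adjusted p = 0.400 from edgeR). Old replicate 3 was its highest library, as for Pdgfd and Pdgfrb.

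Among markers of other cell types, 4 Schwann cell markers had a row. S100b, which other cell types also express, had 72.6, 28.2 and 10.5 CPM in the young libraries against 81.2, 50.8 and 78.2 CPM in the old ones. Of the 7 endothelial markers with a row, Erg had all old libraries below the young ones and a log2 fold change of -2.03 (adjusted p = 0.159 from edgeR and 0.0194 from DESeq2, which called it a DEG), Egfl7 of -0.16 and Tek of 0.77, while Pecam1, Kdr and Vwf were below 1 CPM on average and Cdh5 had no row. Of the leukocyte markers, Cd14 had a log2 fold change of 0.39 and Csf1r of 0.42, and Ptprc had no row. Of the 3 skeletal muscle markers with a row, Tnnt3 had a log2 fold change of 0.92 (adjusted p = 0.216 from edgeR) and Actn2 of -0.77.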
